A study of Oreochromis niloticus with 6 samples.

Results

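The lysosome genes described here are the rows of the gene table whose KEGG annotation names the lysosome and whose name does not begin with atp6v. There were 157 such rows among 40538, and 22 of them were cathepsin loci. A further 10 rows with the same annotation are subunits of the vacuolar proton pump and were set aside by their atp6v names. The rule itself reads the annotation and the name of a row, not its measured values.

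Lysosomes are the acidic compartments in which cells digest protein, glycan, lipid and nucleic acid taken up from outside or delivered by autophagy. Most of their soluble hydrolases are tagged with mannose 6-phosphate in the Golgi, bound there by sorting receptors, and carried to endosomes in clathrin-coated vesicles whose adaptors are the AP-1 complex and the GGA proteins. The membrane is lined by glycoproteins such as LAMP1 and LAMP2 and holds transporters and channels that export the digestion products. In fish gill both the epithelium and the resident phagocytes carry lysosomes, and cathepsins of the phagocytes also trim antigens for presentation.

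RNA-seq libraries were made from gill of genetically improved farmed tilapia (GIFT), a farmed line of Oreochromis niloticus, the Nile tilapia, bred for growth. The 3 control libraries came from fish held at 5 mg/L dissolved oxygen and fed normally. The 3 hypoxia libraries came from fish in water where nitrogen, over 30 min, had driven oxygen down to 1.0 mg/L, and both groups were sampled at 96 h. The sources used here do not give the age, the feeding of the exposed fish or whether a library held 1 fish or a pool, so p-values measure only the spread between these libraries. Since gill is a mixed tissue, fewer cells of a type and less RNA per cell cannot be told apart in any value below.

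Expression was deposited as FPKM, a measure scaled for gene length and library size, so levels can be set side by side between genes. The number of fragments sequenced is unknown, and summed FPKM lay between 438405 and 483691 per library. Of the gill epithelial markers, epcam (MSTRG.18716) at 189 to 441 FPKM and the keratin krt8 at 263 to 342 FPKM were abundant in all 6 libraries. Others on that list were low, such as the ionocyte markers cftr (means of 0.116 and 0.431 FPKM in its rows) and slc12a2 (MSTRG.2776, 1.83 FPKM). Across genes, which do not stand for replicates, libraries of 1 group correlated at a Pearson r of 0.853 to 0.901 and libraries of different groups at 0.80 to 0.854. The prolyl hydroxylase egln3, known as a gene induced by low oxygen, was at 46.4 to 112 FPKM in the libraries labelled control and 2.55 to 3.95 FPKM in those labelled hypoxia. Every direction below rests on the labels. The skeletal muscle markers moved with the groups. In the limma test described below, 7 of 14 tested rows rose at an adjusted p under 0.05, against 3.46% of all tested rows. None of the listed rows was at 0 in every library. The summed level of the 18 listed rows was 407 to 550 FPKM in the control and 835 to 1039 FPKM in the hypoxia libraries. The part of muscle in the lysosome values was not tested.

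Most lysosome genes did not pass the test between the groups. Of the 157 rows, 133 reached a mean of 1 FPKM over the 6 libraries and were tested with limma on log2(FPKM + 1), and every adjusted p below is from that test, with Benjamini-Hochberg adjustment over all 25111 tested rows and a threshold of 0.05. In the hypoxia libraries 2 lysosome rows rose and 6 fell, together 6.02% of those tested, against 6.77% of all tested rows. By direction, 3.46% of all tested rows rose and 3.30% fell. The count of lysosome calls is therefore near the background of the table. The rows that rose were a cathepsin L locus, ctsl.1 (MSTRG.20003), and the beta-galactosidase relative glb1l. Those that fell were the clathrin light chain cltb, the tetraspanin tspan37, a row that merges the beta-mannosidase manba with another gene, rhpn2, the cholesterol exporter npc1 and the AP-1 subunit ap1s3b.

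The median change over the 133 rows was -0.01 on the log2(FPKM + 1) scale, against 0.05 over all tested rows, with 63 rows above 0 and 70 below. Unadjusted p was under 0.05 in 36 lysosome rows (27.1%) and in 25.4% of all tested rows. The groups did not overlap in 22 lysosome rows that lay higher (16.5%) and 24 that lay lower (18.0%) in the hypoxia libraries, where the shares among all tested rows were 19.1% and 14.0%, or 33.2% in either direction. The lysosome rows were measured at higher levels than the table at large, with a median mean level of 9.50 against 4.32 FPKM, and with a smaller median standard error of the log2 change, 0.16 against 0.22. For 101 of the 133 rows (75.9%) the 95% interval of the change lay between -1 and 1 on the log2 scale, against 55.0% of all tested rows. Summed over the 157 rows, lysosome transcripts made up 0.505%, 0.551% and 0.589% of the FPKM of the control libraries 1 to 3 and 0.460%, 0.484% and 0.469% of hypoxia libraries 1 to 3. These shares did not overlap, but the summed FPKM itself did, at 2300.5 to 2582.6 in the control and 2145.0 to 2328.2 in the hypoxia libraries.

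**Figure D1:**
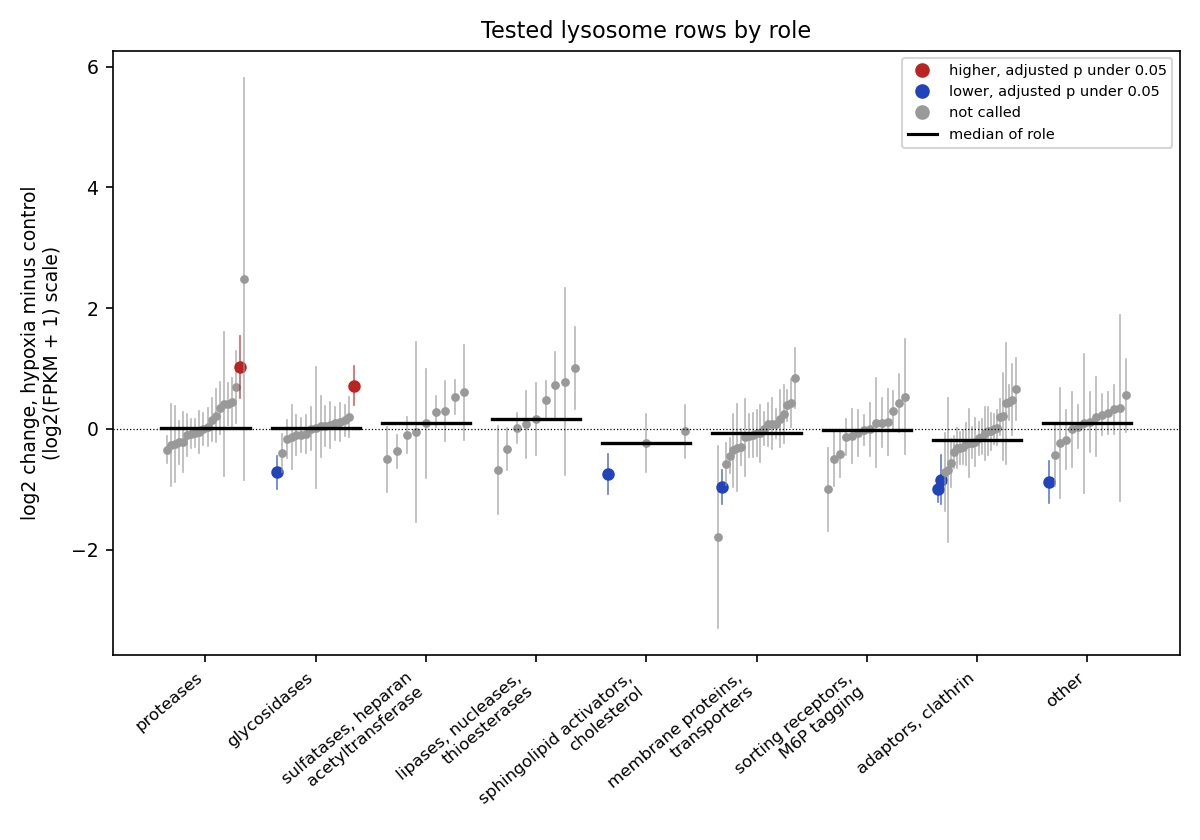
Change between the groups for each of the 133 tested lysosome rows, arranged by role, as the difference of mean log2(FPKM + 1), hypoxia minus control, with the 95% interval of the limma fit as a vertical line and the median of each role as a black bar. The 2 rows that rose are red, the 6 that fell are blue, and the medians of the roles lie between -0.24 and 0.16.

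Cathepsins are proteases, named by letter, and most of them are cysteine proteases of the papain family. Their levels ranged widely in gill, and the most abundant was the cathepsin B locus ctsba. Of the 22 loci 14 were tested, of which 1 rose and none fell at an adjusted p under 0.05. That is 7.14% called, against 6.77% of all tested rows. Unadjusted p was under 0.05 in 5 loci (35.7%, against 25.4% of all tested rows). The 8 untested loci, with means under 1 FPKM, were 5 rows of ctsl.1, 1 each of ctsh and CTSS, and cts12. Together the cathepsin loci summed to 614 to 681 FPKM in the control libraries and 610 to 692 FPKM in the hypoxia libraries.

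The locus ctsl.1 MSTRG.20003, of the cathepsin L type, was at 3.60, 2.12 and 2.42 FPKM in control replicates 1 to 3 and 7.46, 7.15 and 5.06 FPKM in hypoxia replicates 1 to 3. All hypoxia libraries lay above all control libraries. The difference of means was 2.42-fold (log2 change 1.03 ± 0.21 SE, adjusted p = 0.0453). The call was lost when control replicate 2 or 3, or any of the hypoxia replicates, was left out. It was also lost on the TPM scale, with median-of-ratios scaling and with no filter.

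ctsl.1 was the most divided symbol among the members, with 9 rows, and near-identical copies can share reads, so the split of expression between them is uncertain. The locus MSTRG.20002 was listed at 1.41, 0.677 and 0 FPKM in the control replicates and at 15.0, 0 and 42.8 FPKM in the hypoxia replicates. An exact 0 beside 42.8 FPKM in the same group can be a failed estimate. This locus did not pass (adjusted p = 0.312), but passed once hypoxia replicate 2 was left out (adjusted p = 0.0291). The low locus MSTRG.20001 was at 0.316, 0.176 and 0.104 FPKM in the control and 1.31, 2.46 and 0.111 FPKM in the hypoxia replicates. The identifiers MSTRG.20001, MSTRG.20002 and MSTRG.20003 follow one another. Their summed level was 5.32, 2.97 and 2.53 FPKM in the control and 23.7, 9.62 and 48.0 FPKM in the hypoxia replicates. This sum holds the called MSTRG.20003, and in hypoxia replicates 1 and 3 most of it is the uncertain MSTRG.20002. Its separation therefore adds nothing to the call of MSTRG.20003. MSTRG.20008 was at 15.4, 18.6 and 23.7 FPKM in the control and 25.8, 25.8 and 27.1 FPKM in the hypoxia replicates (adjusted p = 0.157). MSTRG.146 overlapped between the groups, at 8.91 to 11.8 and 9.03 to 10.7 FPKM (adjusted p = 0.860). MSTRG.30035, below the level tested, had means of 1.37 FPKM in the control and 0.0583 FPKM in the hypoxia libraries, the opposite order to MSTRG.20003, and its neighbour by number, MSTRG.30034, was listed at 0 in 1 library of each group, with means of 0.218 and 0.605 FPKM. The remaining untested cathepsin rows were ctsl.1 ENSONIG00000002866 (0.224 and 0.282 FPKM), ctsl.1 ENSONIG00000003469 (0.0255 and 0.0405 FPKM), cts12 (0.149 and 0.0401 FPKM) and CTSS ENSONIG00000002754 (0.0174 and 0.0157 FPKM). Another cathepsin L locus, ctsla, was at 55.0, 40.3 and 53.2 FPKM in the control and 39.9, 44.6 and 41.3 FPKM in the hypoxia replicates and overlapped (adjusted p = 0.379).

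None of the abundant cathepsins passed the test. ctsba was at 202, 207 and 198 FPKM in the control and 147, 168 and 163 FPKM in the hypoxia replicates. Its groups did not overlap, and the difference did not pass (log2 change -0.34 ± 0.09 SE, adjusted p = 0.0815), although it passed on the TPM scale (adjusted p = 0.0476). ctsz, the locus of the carboxypeptidase cathepsin Z, was at 128, 109 and 135 FPKM in the control and 119, 142 and 118 FPKM in the hypoxia replicates (adjusted p = 0.899), and the 95% interval of its log2 change ran from -0.28 to 0.34. ctsh (MSTRG.3816), an aminopeptidase, was at 77.0, 106 and 90.3 FPKM in the control and 119, 111 and 132 FPKM in the hypoxia replicates, without overlap (adjusted p = 0.145). A second ctsh locus, MSTRG.331, was not tested because its mean was 0.929 FPKM, and its means of 0.571 ± 0.0392 FPKM in the control and 1.29 ± 0.302 FPKM in the hypoxia libraries (SD, n = 3 each) came from groups that did not overlap either. The aspartic protease locus ctsd was at 41.0, 41.9 and 62.9 FPKM in the control and 28.0, 52.9 and 41.3 FPKM in the hypoxia replicates (adjusted p = 0.589).

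Cathepsin S, which in mammals cuts the class II invariant chain, was represented by CTSS (MSTRG.16032) and ctss1. CTSS was at 48.0, 44.3 and 41.0 FPKM in the control and 37.9, 29.1 and 49.6 FPKM in the hypoxia replicates (adjusted p = 0.543). ctss1 was at 9.42, 12.9 and 15.2 FPKM in the control and 15.1, 14.1 and 14.2 FPKM in the hypoxia replicates (adjusted p = 0.484). Neither pair of groups was separated. Cathepsin C, known for activating granule serine proteases, had 1 library that stood apart: ctsc was at 8.76 FPKM in control replicate 1 and at 26.0 to 32.3 FPKM in the other 5, and its log2 change turned from 0.41 to -0.18 without that library (adjusted p = 0.645 with all 6). In that library the 6 listed red blood cell rows summed to 263 FPKM, against 66.9 and 52.4 FPKM in the other controls and 100.1 to 199 FPKM in the hypoxia libraries. Most of the 263 FPKM was alas2, at 171 FPKM. Another of these rows, slc4a1a, was at 32.3 FPKM there and at 43.8 FPKM in hypoxia replicate 2. Its relative slc4a1b was not high in control replicate 1, at 9.58 FPKM, against 20.8 and 8.90 FPKM in control replicates 2 and 3. The part of red blood cells in the ctsc value was not tested. ctsf was at 7.69, 5.27 and 5.53 FPKM in the control and 9.68, 14.7 and 7.97 FPKM in the hypoxia replicates (adjusted p = 0.151). ctso was at 5.97 to 6.91 FPKM over all 6 libraries with a log2 change between -0.27 and 0.26 (adjusted p = 0.975).

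**Figure D2:**
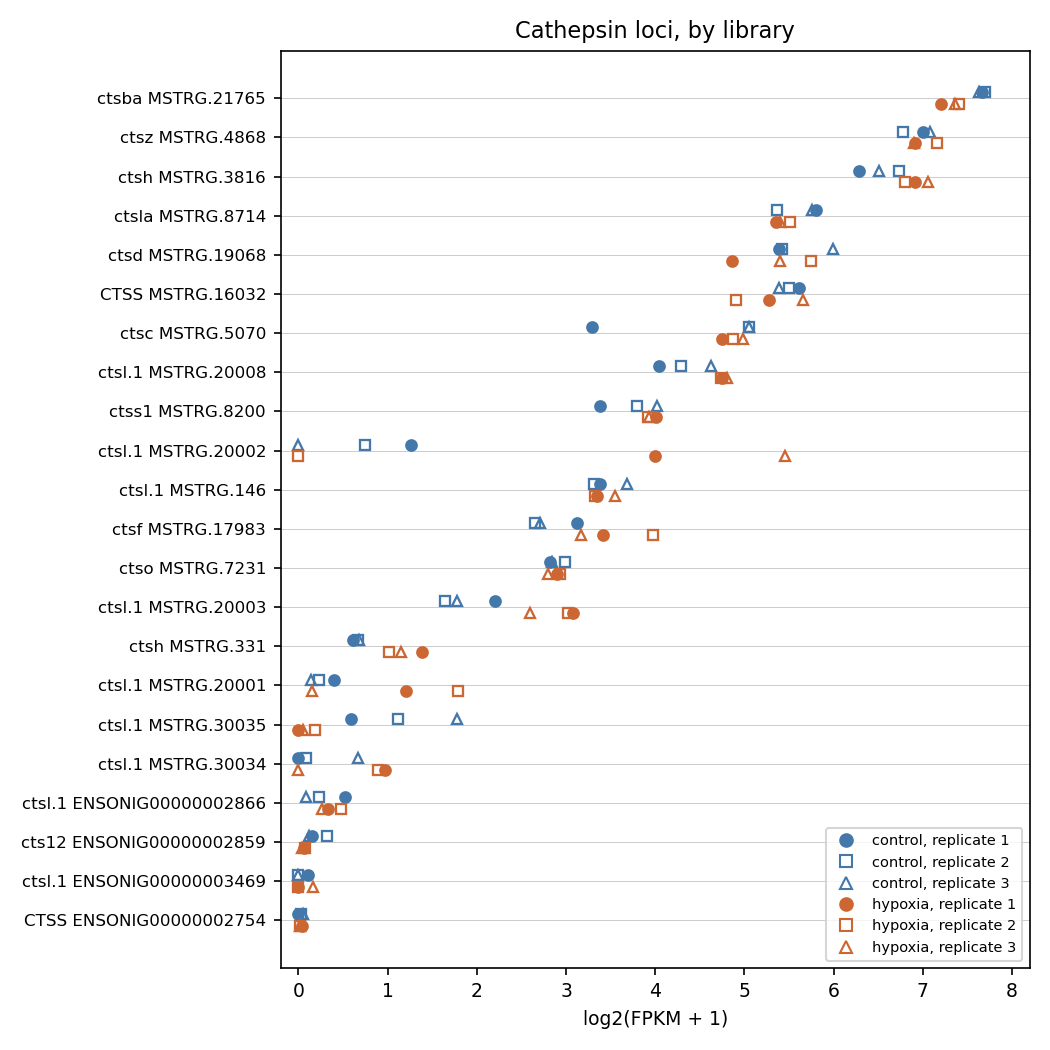
Level of each of the 22 cathepsin loci as log2(FPKM + 1), ordered by mean level, with 1 point per library, control in blue and hypoxia in orange. Among the 14 tested loci the groups separate in ctsba, which is lower, and in ctsh MSTRG.3816, ctsf, ctsl.1 MSTRG.20008 and ctsl.1 MSTRG.20003, which are higher, and of these the test called ctsl.1 MSTRG.20003. These are 7.14% lower and 28.6% higher, against 14.0% and 19.1% of all tested rows.

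Other lysosomal proteases did not pass. Legumain (lgmn), which processes several cathepsins, was at 64.1, 70.0 and 65.4 FPKM in the control and 59.4, 68.1 and 63.1 FPKM in the hypoxia replicates, with a log2 interval of -0.30 to 0.17 (adjusted p = 0.707). The tripeptidyl peptidase tpp1 was at 15.6, 12.3 and 14.5 FPKM in the control and 10.2, 17.7 and 8.81 FPKM in the hypoxia replicates (adjusted p = 0.588). Of 28 rows of proteases and their partners, 20 were tested and ctsl.1 MSTRG.20003 was the 1 called (5.0%, against 6.77% of all tested rows).

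Glycosidases take sugars off glycoproteins, glycolipids and glycosaminoglycans. Of 21 rows, 17 were tested, 1 rose, 1 fell and 15 did not pass (11.8% called, against 6.77% of all tested rows). glb1l was at 7.69, 7.55 and 7.18 FPKM in the control and 14.1, 10.8 and 13.9 FPKM in the hypoxia replicates. The groups were apart, with hypoxia replicate 2 the lowest of its group (1.73-fold, log2 change 0.71 ± 0.13 SE, adjusted p = 0.0355). The call was lost on the TPM scale, with no filter on the mean level, and in all fits that left out a library other than hypoxia replicate 2. The beta-galactosidase glb1 itself, which breaks down gangliosides and keratan sulfate, was at 8.07, 10.6 and 9.05 FPKM in the control and 8.72, 9.16 and 7.68 FPKM in the hypoxia replicates (adjusted p = 0.687). The ratio of glb1l to glb1 was 0.715 to 0.953 in the control and 1.18 to 1.81 in the hypoxia libraries. This ratio holds the called glb1l, so its separation adds nothing to that call.

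The row that holds manba was at 66.3, 78.8 and 82.1 FPKM in the control and 47.5, 43.8 and 45.2 FPKM in the hypoxia replicates (log2 change -0.72 ± 0.11 SE, adjusted p = 0.0245). It was lower in every hypoxia library than in any control library, and the call was lost without control replicate 2 or 3 or hypoxia replicate 1 or 3. The row joins manba to a gene that the table annotates with ubiquitin ligase activity, so which of them changed cannot be told apart. hexb, a subunit of the hexosaminidases that degrade gangliosides, was at 53.7, 63.7 and 66.2 FPKM in the control and 41.1, 45.7 and 51.0 FPKM in the hypoxia replicates, without overlap (adjusted p = 0.122). Its partner hexa was at 8.12 ± 0.682 (SD, n = 3) and 8.70 ± 0.449 FPKM (n = 3; adjusted p = 0.648). The glucocerebrosidase gba was at 12.4 ± 0.406 and 13.8 ± 1.09 FPKM (n = 3 each, adjusted p = 0.440), and naga, an alpha-N-acetylgalactosaminidase, was at 14.2 ± 1.53 and 14.2 ± 2.20 FPKM (n = 3 each, adjusted p = 0.998).

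No sulfatase and no lipase, nuclease or thioesterase passed. Of 9 tested rows of sulfatases and the heparan sulfate acetyltransferase, limma called 0. Unadjusted p was under 0.05 in 3 of them (33.3%, against 25.4% of all tested rows). The row annotated as heparan-alpha-glucosaminide N-acetyltransferase (ENSONIG00000008872), which works in heparan sulfate breakdown, was at 4.77, 5.18 and 4.14 FPKM in the control and 7.13, 7.36 and 7.04 FPKM in the hypoxia replicates (adjusted p = 0.0547). The groups were well apart, and the row passed when only rows with a mean of 5 FPKM were tested (adjusted p = 0.0483). The glucosamine-6-sulfatase gnsa was at 9.06, 8.59 and 8.29 FPKM in the control and 5.82, 6.79 and 6.86 FPKM in the hypoxia replicates (adjusted p = 0.109). Its copy gnsb varied within groups, from 7.12 to 28.9 and from 5.87 to 17.6 FPKM.

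Among the 9 tested rows of lipases, nucleases and thioesterases, limma called 0. Unadjusted p was under 0.05 in 3 of them (33.3%, against 25.4% of all tested rows). The phospholipase pla2g15 was at 6.63, 8.10 and 8.61 FPKM in the control and 10.9, 10.7 and 12.1 FPKM in the hypoxia replicates (adjusted p = 0.0836). si:ch73-95l15.3, which shares its KEGG orthology entry with the palmitoyl-protein thioesterase ppt1, was at 3.13, 4.76 and 6.01 FPKM in the control and 7.22, 13.2 and 10.8 FPKM in the hypoxia replicates (adjusted p = 0.0865). Both rows lay higher in every hypoxia library. ppt1 varied widely within groups, at 67.3, 19.1 and 48.9 FPKM in the control and 32.0, 85.8 and 121 FPKM in the hypoxia replicates (adjusted p = 0.487), and its log2 interval of -0.77 to 2.33 leaves its change undetermined at this spread.

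Of the activators and cholesterol handlers, npc1 fell. NPC1 is the membrane protein that moves cholesterol from low-density lipoprotein out of the lysosome, and mutations in its human gene cause Niemann-Pick disease type C. It was at 12.6, 13.3 and 13.4 FPKM in the control and 7.10, 8.90 and 6.48 FPKM in the hypoxia replicates. The groups were separated by more than the spread within either (1.75-fold, log2 change -0.74 ± 0.14 SE, adjusted p = 0.0345). The npc1 call was lost with no filter, and with any library other than hypoxia replicate 2 left out. psap, whose product is cut into the saposins that present sphingolipids to their hydrolases, was at 136, 143 and 176 FPKM in the control and 135, 184 and 126 FPKM in the hypoxia replicates (adjusted p = 0.910). The ganglioside activator gm2a was at 17.3, 15.0 and 15.4 FPKM in the control and 9.97, 17.1 and 13.6 FPKM in the hypoxia replicates (adjusted p = 0.499).

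Of 27 rows of membrane proteins, channels and transporters, 21 were tested, 1 fell and 20 did not pass. The share called was 4.76%, against 6.77% of all tested rows. tspan37, a tetraspanin that shares its orthology entry with the lysosomal and exosomal tetraspanin cd63, was at 16.0, 17.0 and 17.1 FPKM in the control and 8.07, 9.10 and 7.18 FPKM in the hypoxia replicates. This was 2.06-fold lower, with no overlap (log2 change -0.96 ± 0.12 SE, adjusted p = 0.0151), and the call was lost without control replicate 2 or 3 or hypoxia replicate 1 or 3 (adjusted p = 0.0515 to 0.0623). cd63 itself was at 40.1, 49.2 and 45.9 FPKM in the control and 51.4, 28.0 and 29.5 FPKM in the hypoxia replicates (adjusted p = 0.417).

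The calcium channel mcoln1a was at 6.99, 5.96 and 5.40 FPKM in the control and 3.90, 4.12 and 3.21 FPKM in the hypoxia replicates (adjusted p = 0.0697), while its copy mcoln1b was at 1.72 ± 0.387 and 1.58 ± 0.299 FPKM (n = 3 each). lamp1 was at 43.9, 37.4 and 34.4 FPKM in the control and 29.1, 27.7 and 27.2 FPKM in the hypoxia replicates (adjusted p = 0.0815), and the second row named LAMP1 overlapped, with means of 39.2 and 33.3 FPKM. These rows lay lower without passing. LAMP2, needed for the fusion of autophagosomes with lysosomes, was at 10.5 ± 1.49 and 11.1 ± 1.18 FPKM (n = 3 each, adjusted p = 0.787). The largest difference in this role without a call was in scarb2 (MSTRG.23124), a receptor that in mammals carries glucocerebrosidase to lysosomes. It was at 19.0, 16.3 and 29.3 FPKM in the control and 14.9, 4.36 and 1.97 FPKM in the hypoxia replicates (adjusted p = 0.141). Another row of that name, SCARB2, was at 7.20 ± 0.440 and 7.24 ± 0.620 FPKM (n = 3 each), and a row with the same orthology entry, ENSONIG00000007616, was at 0.750, 1.06 and 1.26 FPKM in the control and 2.70, 3.19 and 2.02 FPKM in the hypoxia replicates (adjusted p = 0.0690). The rows of this family thus lay in different directions, and none of them passed.

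**Figure D3:**
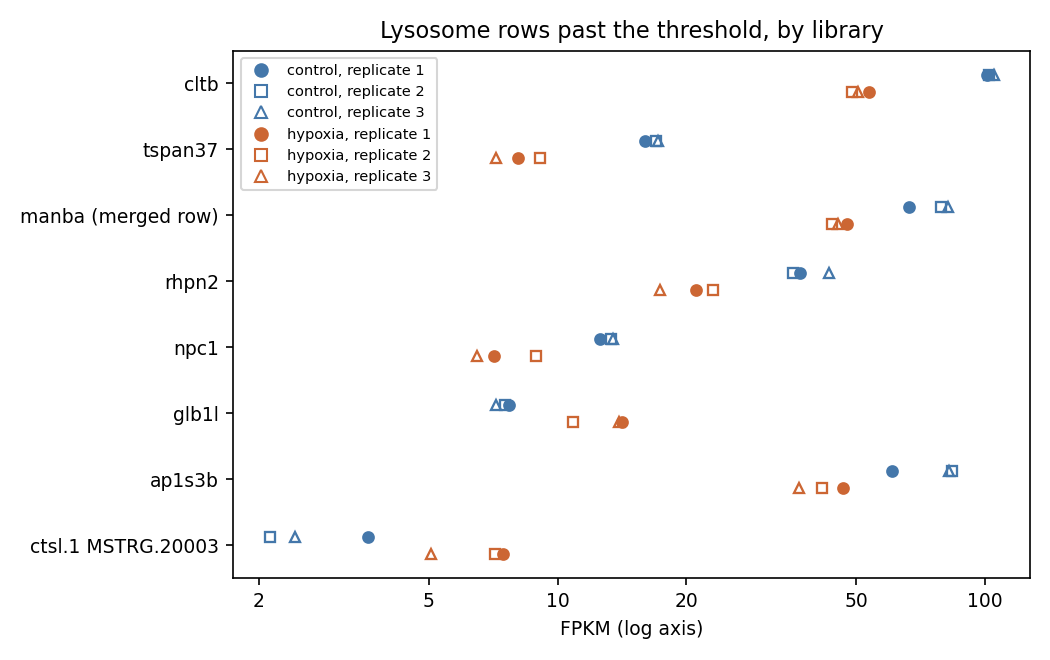
FPKM on a log axis of the 8 lysosome rows with an adjusted p under 0.05, ordered by p from the top, with 1 point per library, control in blue and hypoxia in orange. In each row the groups do not overlap, and the separation is widest relative to the spread in cltb, at 101 to 105 against 48.9 to 53.6 FPKM.

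The adaptor and clathrin rows held the lysosome row with the smallest adjusted p. cltb, 1 of the light chains that stiffen and regulate the clathrin lattice, was at 101, 102 and 105 FPKM in the control and 53.6, 48.9 and 50.4 FPKM in the hypoxia replicates. It was 2.01-fold lower (95% interval of the log2 change from -1.20 to -0.79, SE 0.0850, adjusted p = 0.00923), and it was the 1 lysosome row of the 8 whose call held in all 6 fits that left out a library (adjusted p = 0.0183 to 0.0384). The other light chain, clta, was at 15.6 FPKM in control replicate 1, the library that also stood apart in ctsc. It was at 39.5 to 46.3 FPKM in the other 5 libraries (adjusted p = 0.563). The ratio of cltb to clta was 6.45, 2.21 and 2.41 in the control and 1.25, 1.24 and 1.09 in the hypoxia replicates. This ratio holds the called cltb, so its separation adds nothing to that call, and the 6.45 rests on the low clta value in control replicate 1. The heavy chain cltca was at 45.1, 46.1 and 54.7 FPKM in the control and 37.6, 37.1 and 35.8 FPKM in the hypoxia replicates, without overlap (adjusted p = 0.0899).

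AP-1 links clathrin to cargo at the Golgi and endosomes, and is built of beta, gamma, mu and sigma subunits. Its sigma subunit ap1s3b was at 60.8, 83.9 and 82.5 FPKM in the control and 46.5, 41.6 and 36.7 FPKM in the hypoxia replicates. It was the most abundant AP-1 row, and fell by 0.84 on the log2 scale (± 0.16 SE, 1.82-fold, adjusted p = 0.0400). The call was lost without control replicate 2 or 3 or any hypoxia replicate (adjusted p = 0.0750 to 0.127), and also with no filter. The remaining 9 tested AP-1 rows did not pass. Among them the mu subunit ap1m3 was at 28.9, 43.7 and 50.7 FPKM in the control and 25.8, 29.6 and 18.0 FPKM in the hypoxia replicates (adjusted p = 0.167), and the epithelial mu subunit ap1m2 at 6.94, 8.39 and 7.45 FPKM and 4.83, 5.84 and 3.83 FPKM (adjusted p = 0.0943). The sigma subunit ap1s2 was at 12.0 ± 0.0843 and 14.0 ± 1.87 FPKM (n = 3 each, adjusted p = 0.350). Of the 10 AP-1 rows 8 had a change below 0, with a median of -0.32 on the log2 scale, against 11464 of 25111 and a median of 0.05 over all tested rows. The groups did not overlap in 5 of these AP-1 rows that lay lower and in 2, ap1s2 and AP1S2, that lay higher. Among all tested rows such separation was found lower in 14.0% and higher in 19.1%.

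AP-3, which serves lysosome-related organelles, had 7 tested rows, of which limma called 0 and 0 had an unadjusted p under 0.05, and all 7 had 95% intervals within 1 on the log2 scale. Its median change was -0.07, and it lay at 0.00 with control replicate 3 left out and at 0.01 with hypoxia replicate 3 left out. In AP-4, with 4 tested rows, 0 were called and 2 had an unadjusted p under 0.05. These were ap4m1, at 4.11, 4.07 and 4.80 FPKM in the control and 5.77, 6.31 and 6.53 FPKM in the hypoxia replicates (adjusted p = 0.0836), and ap4s1, at 4.89, 7.04 and 6.16 FPKM and 8.18, 13.2 and 9.21 FPKM (adjusted p = 0.120).

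Over all 26 tested adaptor and clathrin rows, 2 fell and none rose (7.69% called, against 6.77% of all tested rows). In 19 the change was below 0, and the median over the 26 was -0.19 on the log2 scale. The groups did not overlap in 10 rows that lay lower (38.5%) and 4 that lay higher (15.4%), where the shares of all tested rows were 14.0% and 19.1%. Summed FPKM of the 27 rows was 407, 485 and 510 in the control and 359, 356 and 334 in the hypoxia replicates. These sums include cltb and ap1s3b, the most abundant of the rows by mean FPKM. Without these rows the sums overlapped, at 245, 298 and 323 FPKM in the control and 259, 266 and 247 FPKM in the hypoxia replicates.

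**Figure D4:**
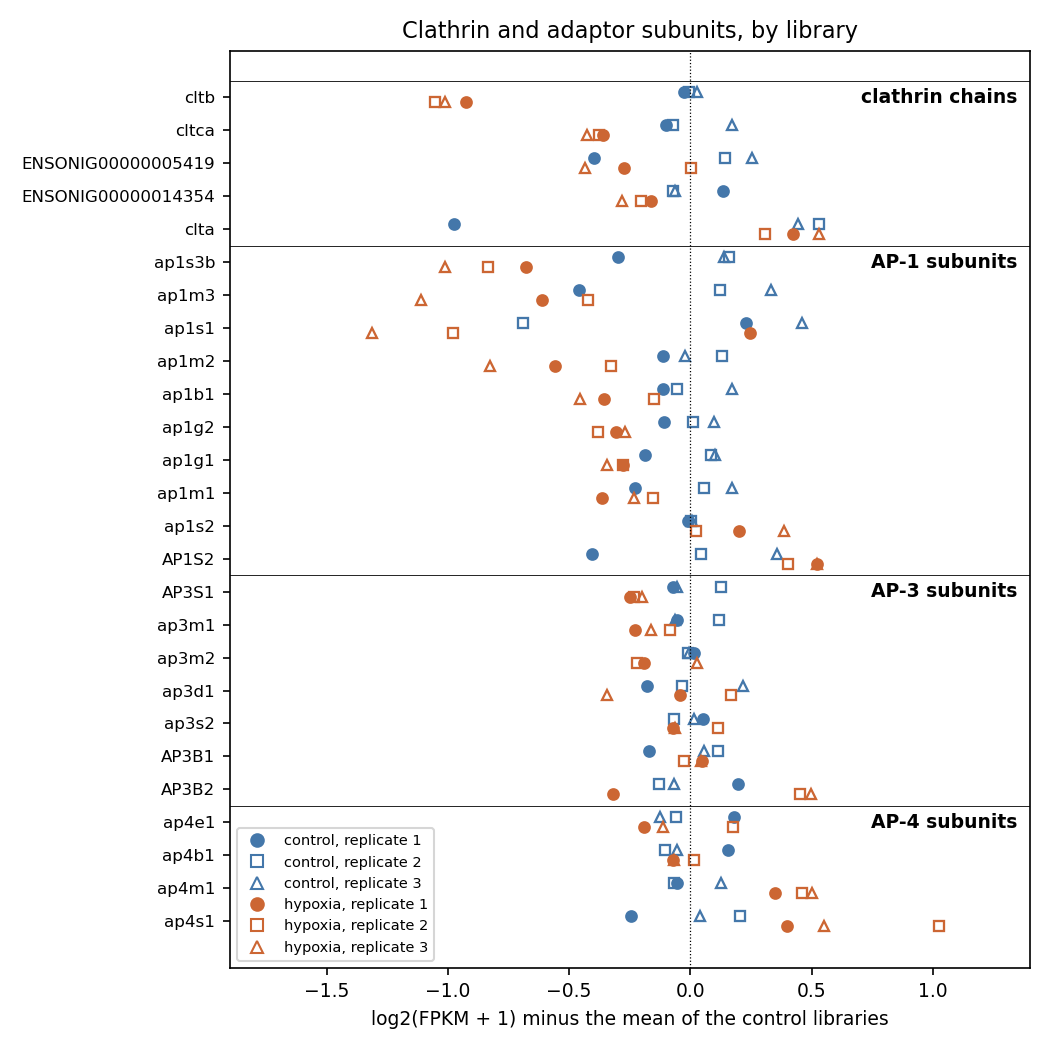
Level of each tested clathrin and adaptor subunit in each library as log2(FPKM + 1) minus the mean of the control libraries, grouped by complex, control in blue and hypoxia in orange. The hypoxia libraries lie left of all control libraries in 3 clathrin rows (cltb, cltca and ENSONIG00000014354), 5 of the 10 AP-1 rows and 2 AP-3 rows (AP3S1 and ap3m1), and right of them in ap1s2, AP1S2, ap4m1 and ap4s1. Such separation was found lower in 14.0% and higher in 19.1% of all tested rows.

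None of the 14 tested rows of sorting receptors and mannose 6-phosphate tagging was called by limma. Unadjusted p was under 0.05 in 3 of them (21.4%, against 25.4% of all tested rows). The sortilin locus sort1b, a receptor for several lysosomal proteins, was at 20.5, 26.8 and 27.9 FPKM in the control and 14.2, 15.6 and 7.55 FPKM in the hypoxia replicates (adjusted p = 0.0910), while sort1a was at 2.81 ± 0.625 and 3.05 ± 0.177 FPKM (n = 3 each, adjusted p = 0.741). The adaptor gga1 (MSTRG.20770) was at 6.61, 7.43 and 9.35 FPKM in the control and 4.94, 6.12 and 5.54 FPKM in the hypoxia replicates (adjusted p = 0.163). The larger mannose 6-phosphate receptor igf2r overlapped, at 14.6, 12.4 and 10.3 FPKM and 7.43, 10.6 and 7.65 FPKM (adjusted p = 0.169). The smaller receptor m6pr was at 10.7 ± 3.03 and 11.4 ± 1.43 FPKM (n = 3 each, adjusted p = 0.790), and gnptab, which encodes subunits of the tagging enzyme, was at 4.11, 5.11 and 5.47 FPKM and 5.99, 6.31 and 6.45 FPKM (adjusted p = 0.215).

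A remainder of 16 rows carried the lysosome annotation with no role from the lists. Among its 14 tested rows 1 fell and none rose (7.14% called, against 6.77% of all tested rows). rhpn2 was at 36.9, 35.6 and 43.2 FPKM in the control and 21.1, 23.1 and 17.3 FPKM in the hypoxia replicates (log2 change -0.89 ± 0.14 SE, adjusted p = 0.0254). The groups did not overlap, and the call was lost in every fit that left out a library other than hypoxia replicate 2. It is a member by its KEGG text alone, and its gene ontology terms in the table are cytoplasm and signal transduction. The same holds for rows such as C7orf50, ccdc80, TRAPPC8 and fgfrl1a, which are not known as lysosomal proteins. si:ch211-212k18.7 was at 54.5 FPKM in hypoxia replicate 2 and 9.82 to 16.0 FPKM in the other 5 libraries.

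Genes that act with the lysosome but lie outside the rule were read from lists chosen by symbol. The vacuolar proton pump acidifies the lysosome and, in gill, also serves acid secretion. Of its 18 tested rows 1 fell and none rose (5.56% called, against 6.77% of all tested rows). The row that fell was a membrane-ring subunit, ATP6V0C (MSTRG.1801), at 92.0, 109 and 97.3 FPKM in the control and 68.9, 69.1 and 62.3 FPKM in the hypoxia replicates (adjusted p = 0.0356). A low row of the same name, MSTRG.21038, had means in the opposite order, 0.864 and 1.63 FPKM, and overlapped (adjusted p = 0.402). Of 17 tested rows for tethering and fusion, 1 fell and none rose (5.88% called, against the same 6.77%). It was the small GTPase RAB7A of late endosomes, at 55.8, 61.9 and 67.2 FPKM in the control and 42.9, 41.9 and 40.1 FPKM in the hypoxia replicates (adjusted p = 0.0360). A second row, rab7, was at 16.4 to 47.2 FPKM over the 6 libraries and overlapped. Changes lay below 0 in 12 of these 17 rows and in 14 of the 18 pump rows, against 11464 of 25111 tested rows. The groups did not overlap in 6 tethering and fusion rows that lay lower (35.3%) and 0 that lay higher. For the pump these were 4 lower (22.2%) and 1 higher (5.56%). The shares of all tested rows were 14.0% lower and 19.1% higher. The ATP6V0C call was lost with any library left out, and the RAB7A call in 5 of those 6 fits.

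Transcription factors of the MiT family, which drive lysosomal genes in mammals, and the lysosomal anchors of mTORC1 made up 17 tested rows. Of these limma called 0, and 1 had an unadjusted p under 0.05 (5.88%, against 25.4% of all tested rows). That row was tfec, at 1.67, 1.64 and 0.992 FPKM in the control and 2.56 to 3.95 FPKM in the hypoxia replicates (adjusted p = 0.0816). The lysosomal amino acid sensor slc38a9 was at 12.4 ± 2.05 and 9.44 ± 1.17 FPKM (n = 3 each, adjusted p = 0.228). tfeb was at 6.43, 5.67 and 5.29 FPKM in the control and 7.04, 1.79 and 6.41 FPKM in the hypoxia replicates, and tfe3a (MSTRG.27403), the most abundant of the family, was at 33.7 ± 2.13 and 30.7 ± 2.44 FPKM (n = 3 each). The 1 row matched for inhibitors of cysteine cathepsins, CST7, was at 35.7, 29.9 and 32.8 FPKM in the control and 25.4, 21.3 and 27.6 FPKM in the hypoxia replicates (adjusted p = 0.135).

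Phagocytes are rich in lysosomes, and most of their tested markers did not pass. Of 10 tested macrophage rows 1 rose, where 3.46% of all tested rows rose. It was the growth factor receptor csf1ra, at 2.82, 3.31 and 3.80 FPKM in the control and 8.72, 10.9 and 9.35 FPKM in the hypoxia replicates (adjusted p = 0.0125). Of the 10 rows, 4 had a change above 0 and 6 below. Several of them are copies of mrc1 (mrc1a and mrc1b), so the rows are not separate markers. The markers mpeg1, marco, c1qb, irf8 and cd163 were also looked for and had no row of their own name. The groups did not overlap in 2 rows that lay higher, csf1ra and spi1b (adjusted p = 0.115). Nor did they overlap in 2 that lay lower, mrc1a MSTRG.2316 (adjusted p = 0.0606) and mrc1b MSTRG.704 (adjusted p = 0.101). Without overlap, 19.1% of all tested rows lay higher and 14.0% lower, so 2 of 10 rows each way is near the background. The summed level of the 11 listed rows was 114 to 157 FPKM in the control and 100.2 to 177 FPKM in the hypoxia libraries. Of 7 tested granulocyte rows 2 fell (28.6%, against 3.30% of all tested rows). They were LECT2 (MSTRG.14955, 8.80 ± 2.12 to 1.47 ± 0.209 FPKM, n = 3 each, adjusted p = 0.0113) and nccrp1 (27.3 ± 1.89 to 16.5 ± 1.46 FPKM, n = 3 each, adjusted p = 0.0253). Of the 7 rows, 4 had a change above 0 and 3 below. Summed levels of the 10 listed rows were 110 to 120 FPKM in the control and 109 to 122 FPKM in the hypoxia libraries. The nccrp1 call was lost with any library other than hypoxia replicate 2 left out. No listed phagocyte row was at 0 in all libraries. The osteoclast list held 1 tested row, tnfrsf11a, at 6.54 ± 0.518 and 7.45 ± 0.697 FPKM (n = 3 each), and it overlapped between the groups (adjusted p = 0.443). Its 5 listed rows summed to 7.35 to 8.39 FPKM in the control and 9.40 to 10.3 FPKM in the hypoxia libraries, without overlap. Of these rows, 4 had means under 1 FPKM and were not tested. All 4 lay higher in every hypoxia library than in any control library. Their control and hypoxia means were 0.0630 and 0.162 FPKM (calcr), 0.324 and 0.620 FPKM (ocstamp), 0.550 and 0.910 FPKM (nfatc1), and 0.332 and 0.859 FPKM (NFATC1). Among 9 tested rows of gill epithelium and ionocytes limma called 0. Unadjusted p was under 0.05 in 1 row (11.1%, against 25.4% of all tested rows). That row was a second epcam locus, MSTRG.18717, at 12.6 ± 3.59 and 2.92 ± 2.28 FPKM (n = 3 each, adjusted p = 0.0575), without overlap. Summed levels of the list were 804 to 952 FPKM in the control and 705 to 922 FPKM in the hypoxia libraries. The part of these cells in the lysosome values was not tested.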

How the data were processed

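The deposited table gives each gene's FPKM in each library. Per the submitters' processing notes the authors used HISAT, an aligner, and StringTie, an assembler; the sources used here do not give their versions or the genome build. Every column of values was matched to a library by its title. Count models do not suit FPKM. The scale was log2(FPKM + 1), and rows averaging 1 FPKM or more were tested with limma 3.58.1 in R 4.3.3 (lmFit, eBayes with a mean-variance trend, two-sided, no covariate), and fold changes on that scale understate the change of low genes. Depth is unknown, so precision is the spread over 3 libraries per group.

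Of the 157 lysosome rows, 145 carry StringTie identifiers (MSTRG), 7 have merged names and 15 have an Ensembl identifier as name. Roles came from symbols for 110 rows, merged names for 6, a shared KEGG orthology entry for 22 and annotation text for 3. Members and lists were chosen with earlier results of these data known. Rows named are all cathepsin loci, all called lysosome rows, and the smallest p of most other lists. The muscle list is given as a count and a sum. Further copies, partners and complex subunits, and rows of uneven level, were named after their values were seen. Alternatives were a pseudocount of 0.1, no filter, a minimum mean of 5 FPKM, TPM and median-of-ratios scaling, robust empirical Bayes, the replicate block, and each library left out.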

Additional observations from a re-analysis of the deposited data

How the results depend on the processing

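The counts of lysosome rows higher and lower were 2 and 6. They became 0 and 7 on the TPM scale, 1 and 6 with median-of-ratios scaling and 0 and 4 with no filter, and 3 and 6 with a minimum mean of 5 FPKM. The rows newly called there were ENSONIG00000008872 and ctdsp2;SLC11A2 (MSTRG.26295), a merged row that holds the iron transporter SLC11A2. The balance of the whole table moved too, from 870 higher and 829 lower rows to 593 and 941 on the TPM scale, 764 and 975 with median-of-ratios scaling and 519 and 539 with no filter. Leaving out 1 library gave 0 to 2 higher and 1 to 5 lower rows. The total was 7 with hypoxia replicate 2 left out and 5 with control replicate 1 left out. It was 1 (cltb) on omission of each of the remaining 4 libraries, where the calls in the whole table also fell, to between 106 and 257 higher and 154 and 260 lower rows. The 1 cathepsin locus called higher became 0 on the TPM scale, with median-of-ratios scaling, with a minimum mean of 5 FPKM (where it was not tested) and with no filter, and 0 to 1 with a library left out. On the TPM scale 1 cathepsin locus, ctsba, was called lower in place of 0. The median change of -0.01 was -0.11 on the TPM scale, where the median of all rows moved from 0.05 to -0.03. With the replicate block 0 lysosome rows and 0 cathepsin loci were called in either direction, and 2 rows in the whole table; same-numbered libraries did not deviate together (correlations of -0.06, -0.04 and -0.12), so the numbers are not taken as pairs. The near-zero change of ctsz turned to -0.069 on the TPM scale and -0.0269 with median-of-ratios scaling. With a library left out it ranged from -0.0551 to 0.0969, that of ctsc from -0.18 to 0.70, that of ctsl.1 MSTRG.146 from -0.125 to 0.0614 and that of ctso from -0.0372 to 0.0423. None of the called rows named reversed under any alternative, and a pseudocount of 0.1 and robust empirical Bayes kept all 8 lysosome calls. The cause of these differences was not tested. Unknown depth limits what can be said of the 24 rows below 1 FPKM.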
